A study of Mus musculus with 4 samples.

Results

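The vomeronasal receptor genes encode pheromone receptors of sensory neurons in the nose and were examined here in myeloid cells. They were taken as the protein-coding genes of the RefSeq annotation of GRCm38.p6, the assembly behind mm10, whose symbols begin with Vmn1r or Vmn2r. The annotation listed 355 such genes of 21900 protein-coding genes, 231 of the V1R and 124 of the V2R family. For 3 of them (Vmn1r186, Vmn1r187 and Vmn2r122) the listed positions began before 3 Mb of their chromosome. They were read as positions on unplaced scaffolds, which was not checked against a genome, and were not matched to peaks. This left 352 receptor genes, 229 V1R and 123 V2R, of 21779 protein-coding genes with a place.

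The study used chromatin immunoprecipitation and sequencing to map H3K9ac, acetylation of histone H3 at lysine 9, in bone marrow-derived MDSC of the mouse. These myeloid-derived suppressor cells are immature myeloid cells that restrain T cells. They were senescent by in vitro induction and kept in a condition labelled CM, which the labels do not spell out, either alone or with romidepsin, an inhibitor of class I histone deacetylases. Each of these conditions gave 1 immunoprecipitated library and its peak list. Strain, age and sex of the mice, dose and time of romidepsin, and the number of animals are not stated in the labels. Without replicates no difference between the lists carries an error or a test.

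H3K9ac marks active promoters and is removed by histone deacetylases. Vomeronasal receptors are G protein-coupled receptors for pheromones. V1R proteins have short extracellular ends, are mostly encoded by a single coding exon and signal through the G protein subunit encoded by Gnai2. V2R proteins have a long extracellular domain, are spread over several exons and signal through the product of Gnao1. A sensory neuron of the vomeronasal organ expresses very few of these genes, and the rest stay silent, as they do in other tissues. Both families lie in tandem clusters.

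In CM 16419 peaks were listed, covering 23.0 Mb, and with romidepsin 103336, covering 200.4 Mb. The median fold enrichment given by the authors' peak caller was 5.04 and 2.64. Read numbers are not stated, and the length of a list depends on them. Of 13 myeloid marker genes, 11 had a CM peak and 13 a romidepsin peak within the gene or 1 kb of it. S100a9 and Ly6g, 2 defining neutrophil markers, had none in CM. Of 8 markers of vomeronasal sensory neurons, among them Omp and Trpc2, 0 had a CM peak and 1 (Gng8) a romidepsin peak. The counts were 1 and 4 of 5 for lymphocyte, 0 and 3 of 4 for stromal and 2 and 2 of 4 for erythroid markers. By the same rule 53.8% of all protein-coding genes had a CM peak and 68.7% a romidepsin peak.

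H3K9ac peaks were almost absent from the vomeronasal receptor genes in both lists. A gene was counted where a peak overlapped its span plus 1 kb on either side by at least 1 bp. In CM 1 of 352 receptor genes had a peak, or 0.284% (exact Clopper-Pearson 95% interval 0.00719 to 1.57), while 53.8% of all protein-coding genes did. With romidepsin 4 of 352 had a peak, or 1.14% (interval 0.31 to 2.88), while 68.7% of all protein-coding genes did. The 4 genes included the CM gene, and the other 3 were in the longer romidepsin list only. These intervals, and those below, cover counting error over genes only. A gene without a listed peak may still carry acetylation under the peak caller's threshold.

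Stricter settings left fewer receptor genes. With peaks of a −log10 q of 5 or more, 0 receptor genes had a CM peak and 1 a romidepsin peak, against 32.6% and 50.1% of all genes. With a fold of 3 or more the counts were 1 and 2, against 53.8% and 60.1%. When the romidepsin list was reduced to its strongest peaks, as many as in CM, 1 receptor gene was left in each list, Vmn1r4 in CM and Vmn2r29 with romidepsin, against 53.8% and 54.8% of all genes.

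Counts were low in both families. Among V1R genes 1 of 229 had a peak in each list, and it was the same gene, Vmn1r4. Among V2R genes 0 of 123 had a CM peak (upper bound 2.95%) and 3 had a romidepsin peak (2.44%, interval 0.506 to 6.96). These were Vmn2r26, Vmn2r27 and Vmn2r29. V2R genes are much longer, with a median span of 24544 bp against 924 bp for V1R genes, and so offer more sequence to a peak. Per length, the romidepsin list held 1.23 peaks per Mb of V1R windows and 1.16 per Mb of V2R windows. These rates rest on 1 and 4 peaks, too few to compare the families. Over all protein-coding gene windows the rate was 66.9 per Mb.

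**Figure D1:**
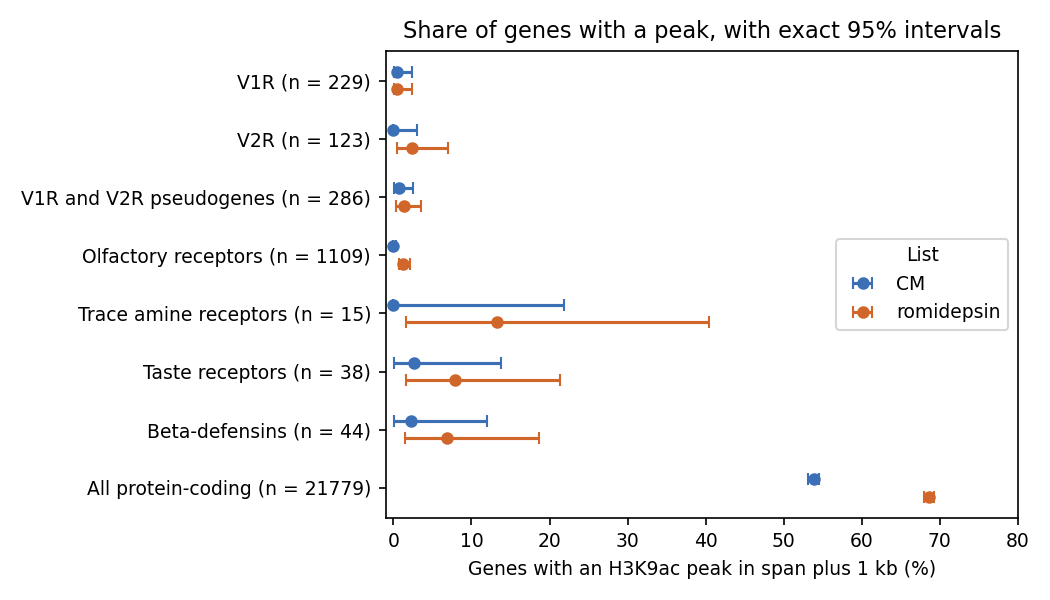
Share of genes with an H3K9ac peak in their span plus 1 kb, in percent, for each gene family and all protein-coding genes. Points are the CM list (blue) and the romidepsin list (orange), bars are exact 95% intervals over genes. V1R and V2R genes lie at 0 to 2.44%, and all protein-coding genes at 53.8% and 68.7%.

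The receptor windows together spanned 4.27 Mb. The CM list covered 1.07 kb of them, or 0.0252%, and the romidepsin list 8.19 kb, or 0.192%. Over all protein-coding gene windows the covered shares were 1.95% and 13.7%. Over the chromosomes, from the first to the last annotated gene, they were 0.865% and 7.53%. The receptor shares were below those of the chromosomes as a whole as well as below those of genes.

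The counts were also low among genes of like length. Among genes shorter than 2 kb, 0 of 209 receptor genes had a peak in either list (upper bound 1.75%). Protein-coding genes of that length outside the vomeronasal and olfactory receptor families had one in 313 of 1390 cases in CM (22.5%) and in 487 with romidepsin. Among genes of 10 to 100 kb, 1 and 4 of 114 receptor genes had a peak, or 0.877% and 3.51%. The shares for other genes of that length were 65.4% and 80.7% of 11356.

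The single CM peak at a receptor gene lay mostly over a neighbour, Nt5c3, at the upper end of its span. It covered chromosome 6 from 56923099 to 56924173 (1075 bp) with a fold of 4.48 and a −log10 q of 3.01. Of its length, 24.2% fell inside the annotated span of Vmn1r4 (56923914 to 56957608). The rest lay in Nt5c3 alone, which encodes a cytosolic pyrimidine nucleotidase and whose span ends at 56924008, so that both spans overlap at this point. The romidepsin peak there ran from 56917659 to 56924902 (7244 bp, fold 3.16, −log10 q 4.05), with 13.7% of its length inside Vmn1r4. It extended mostly into Nt5c3. Nt5c3 had 2 CM peaks in its window with a highest fold of 5.13, and 6 romidepsin peaks with a highest fold of 3.42. The promoter table placed the start of Nt5c3 at 56901886, inside its span, where the other CM peak lay.

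Vmn1r4 lies on the plus strand, so the end of its span under both peaks is the upstream end of the annotated gene. The RefSeq promoter table placed the start of Vmn1r4 near the other end of its span, at 56956513. This start lay 32.3 kb from the nearest CM peak and 31.6 kb from the nearest romidepsin peak. The 250 bases before this start (GRCm38.p6, chr6:56956263-56956512, plus strand) are shown because they carry no peak in spite of the count for the gene. Capitals mark CG dinucleotides here and below, of which this stretch has 1, and 28.8% of its bases are G or C.
Vmn1r4: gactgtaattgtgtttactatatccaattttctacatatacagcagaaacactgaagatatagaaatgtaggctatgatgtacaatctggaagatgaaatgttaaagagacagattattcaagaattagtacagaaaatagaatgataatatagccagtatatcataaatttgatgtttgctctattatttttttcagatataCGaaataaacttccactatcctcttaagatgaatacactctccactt

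Among receptor genes in the promoter table, Vmn2r29 was the only one with a peak at a listed start. The romidepsin peak covered chromosome 7 from 7277660 to 7278897 (1238 bp) with a fold of 3.62, higher than 89.8% of the peaks in its list, and a −log10 q of 5.10. It spanned the upper end of the gene (7212996 to 7278289, minus strand). CM had no peak there, and the CM peak nearest to this start lay 19.8 kb away at Clcn4. The peak reached no other protein-coding gene within 1 kb. Clcn4, which encodes a chloride and proton exchanger, lay 3.41 kb further on, and Zfp772, a zinc finger gene, lay at the other side of Vmn2r29. Both had peaks in both lists. Counted from the lower end of Vmn2r29, its romidepsin peak lay at 64.7 to 65.9 kb. Further romidepsin peaks followed at 67.2 to 68.5 kb and at 68.8 to 70.3 kb. The last of these reached into Clcn4, whose span begins at 69.3 kb. By the definition used here, a gene with a CM peak within 1 kb of a gene end, the active neighbour was Zfp772, 67.7 kb from the romidepsin peak. The CM peak of Clcn4 missed that definition because it lay at the annotated start of Clcn4 inside its span. The CM fold in the window of Clcn4 was 5.10 and the highest romidepsin fold was 4.43.

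Vmn2r29 had 2 annotated starts, and only the distal one carried the peak. The distal start at 7278289 follows a CG-rich stretch (chr7:7278290-7278539, minus strand) with 17 CG dinucleotides in 250 bases and 60.8% G or C. The proximal start at 7247328 follows a stretch (chr7:7247329-7247578, minus strand) with 0 CG dinucleotides and 39.2% G or C, 30.3 kb from the nearest romidepsin peak. The stretch before the distal start of Clcn4 at 7299557 (chr7:7299558-7299807, minus strand), with 22 CG dinucleotides, is shown for comparison.
Vmn2r29 distal: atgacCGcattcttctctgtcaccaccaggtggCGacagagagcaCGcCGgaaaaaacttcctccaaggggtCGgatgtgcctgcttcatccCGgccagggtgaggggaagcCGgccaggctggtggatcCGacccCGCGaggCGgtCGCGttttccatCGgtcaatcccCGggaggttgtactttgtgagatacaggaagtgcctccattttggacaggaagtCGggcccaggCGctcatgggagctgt
Vmn2r29 proximal: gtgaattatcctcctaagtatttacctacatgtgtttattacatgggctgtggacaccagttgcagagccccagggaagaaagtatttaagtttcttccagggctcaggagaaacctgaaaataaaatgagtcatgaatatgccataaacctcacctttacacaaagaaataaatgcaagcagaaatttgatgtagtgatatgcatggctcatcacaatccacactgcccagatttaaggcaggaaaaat
Clcn4 distal: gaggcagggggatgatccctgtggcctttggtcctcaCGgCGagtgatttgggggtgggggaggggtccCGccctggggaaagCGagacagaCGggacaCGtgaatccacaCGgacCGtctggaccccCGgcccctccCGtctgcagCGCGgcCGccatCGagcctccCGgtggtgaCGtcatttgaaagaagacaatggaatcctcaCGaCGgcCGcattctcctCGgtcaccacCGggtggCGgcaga

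Part of the distal Vmn2r29 stretch resembled the Clcn4 promoter. In a local alignment of the 300-base windows (250 bases before to 50 after a start), bases 5 to 62 of the Vmn2r29 window matched bases 215 to 272 of the Clcn4 window at 52 of 58 positions, or 89.7%. The score of this alignment was 46, and Clcn4 ranked first among the windows of all protein-coding genes compared in the same orientation. The second, Crhr1, scored 22. The proximal Vmn2r29 window aligned with that of Clcn4 over 14 positions.

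Vmn2r26 and Vmn2r27, neighbours on chromosome 6, carried romidepsin peaks deep inside the gene. In Vmn2r26 (124024758 to 124062035) there were 2 peaks, from 124048092 to 124049584 (fold 2.78, −log10 q 2.87) and from 124051434 to 124052082 (fold 2.46, −log10 q 2.18). In Vmn2r27 (124191596 to 124231784) there was 1, from 124200828 to 124203650 (2823 bp, fold 2.86, −log10 q 2.96). These folds were higher than 60.8%, 31.6% and 65.8% of the romidepsin list. All lay wholly inside a receptor gene, and no other protein-coding gene was within 1 kb. The nearest gene outside the vomeronasal and olfactory receptor families was Cd163, the scavenger receptor gene of macrophages. It lay 255 and 253 kb away from the Vmn2r26 peaks and 101 kb from the Vmn2r27 peak. The nearest gene with a CM peak at an end was Pex5, a peroxisome import receptor gene, 347, 345 and 193 kb away.

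The annotated starts of this pair lay 23.3 kb (Vmn2r26) and 28.1 kb (Vmn2r27) from the nearest romidepsin peak, and 296.6 kb and 89.5 kb from the nearest CM peak. Their promoter windows were alike, with 240 identical positions in an alignment of 296 columns, or 81.1%. The 250 bases before each start (chr6:124024508-124024757, plus strand, and chr6:124231785-124232034, minus strand) are shown as the receptor promoter type without a peak. They hold 3 and 0 CG dinucleotides.
Vmn2r26: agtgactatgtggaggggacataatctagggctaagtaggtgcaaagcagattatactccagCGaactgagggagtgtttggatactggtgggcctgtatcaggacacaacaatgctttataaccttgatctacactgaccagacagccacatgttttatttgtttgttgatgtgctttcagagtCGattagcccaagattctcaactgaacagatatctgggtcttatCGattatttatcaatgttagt
Vmn2r27: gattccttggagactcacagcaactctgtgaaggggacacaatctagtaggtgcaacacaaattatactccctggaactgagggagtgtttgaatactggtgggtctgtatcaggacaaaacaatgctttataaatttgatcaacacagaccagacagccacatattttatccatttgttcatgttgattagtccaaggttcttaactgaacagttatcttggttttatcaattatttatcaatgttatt

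**Figure D2:**
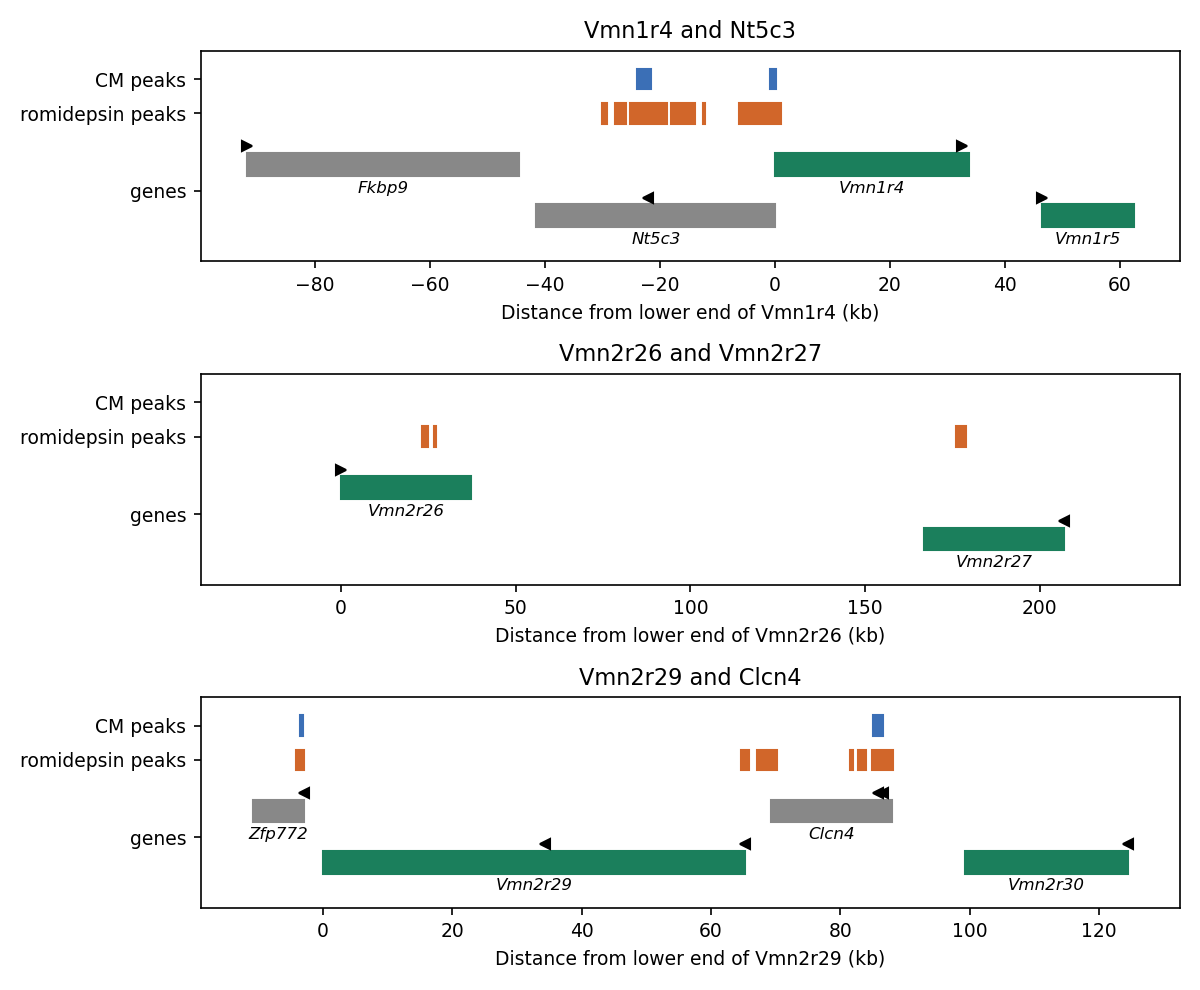
Maps of the 3 loci where a receptor gene had a peak, with the distance from the lower end of the first-named receptor gene in kb. Green bars are receptor genes and grey bars other protein-coding genes. Arrowheads are starts of the promoter table with their direction, and blue and orange boxes CM and romidepsin peaks. Peaks crowd over Nt5c3 and Clcn4, whereas Vmn2r26 and Vmn2r27 have isolated romidepsin peaks away from their starts.

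Receptor genes without a peak were mostly far from one. The median distance from a receptor gene to the nearest peak was 332 kb in CM (quartiles 149 and 867) and 271 kb with romidepsin (quartiles 111 and 657), while the median over all protein-coding genes was 0 in both lists. With romidepsin, 76.1% of receptor genes and 16.3% of all protein-coding genes lay more than 100 kb from a peak. V1R and V2R genes had medians of 283 and 250 kb in the romidepsin list. Beyond the 4 genes counted, all of which overlapped their peak directly, the closest were Vmn2r57 at 5.79 kb, Vmn1r87 at 7.36 kb, Vmn1r235 at 9.44 kb, Vmn2r30 at 11.1 kb and Vmn1r32 at 12.7 kb. For 3 of these the peak belonged to the window of another gene, AI987944 beside Vmn2r57, Clcn4 beside Vmn2r30 and Mad2l1, a spindle checkpoint gene, beside Vmn1r32. Vmn1r138 was farthest from any romidepsin peak, at 2052 kb.

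**Figure D3:**
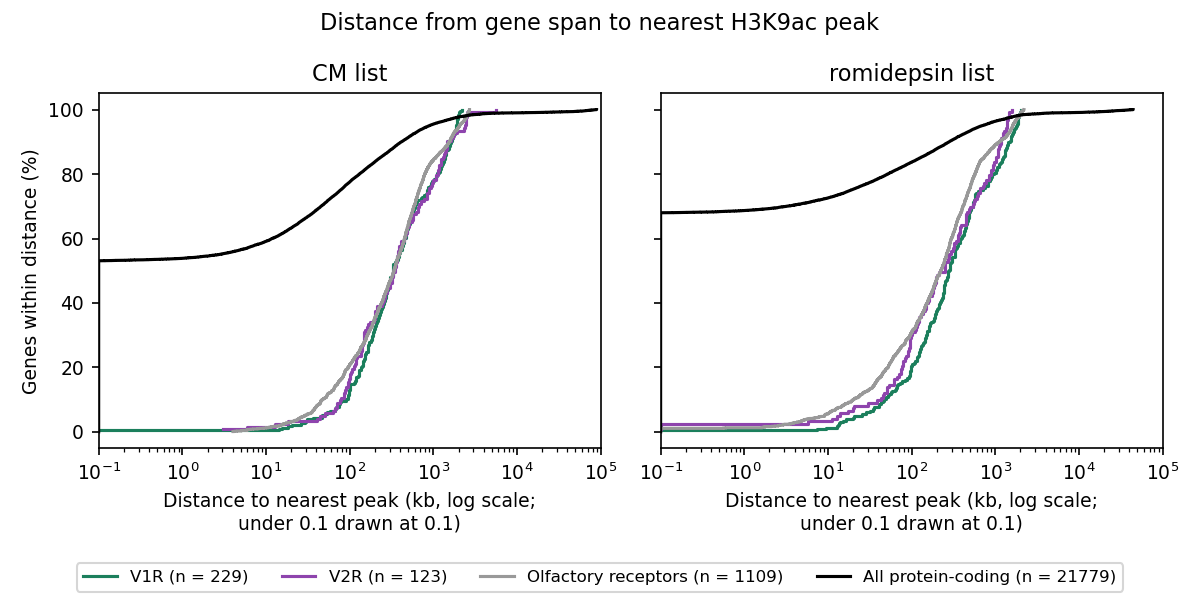
Share of genes, in percent, within a given distance of the nearest H3K9ac peak, on a log axis in kb, for the CM list (left) and the romidepsin list (right). The curves of V1R, V2R and olfactory receptor genes rise mostly between 100 kb and 1 Mb, with medians of 223 to 283 kb in the romidepsin list, whereas most protein-coding genes overlap a peak.

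The receptor genes fell into 27 groups when genes less than 1 Mb apart were joined, of which 9 held 10 or more genes and together 290. Only 3 groups had a receptor gene with a romidepsin peak, and 24 had none. The largest held 86 V1R genes over 3.95 Mb of chromosome 7 (20101158 to 24055691), without a single peak in either list. The V1R group of 36 genes on chromosome 13 (22087878 to 23250323, 1.16 Mb) and the V2R group of 15 genes on chromosome 7 (84940169 to 87037968, 2.10 Mb) likewise held 0 peaks in both lists.

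These groups accounted for several of the longest stretches between neighbouring peaks. Of the 100 longest stretches on chromosomes 1 to 19 and X in the romidepsin list, all at least 2.81 Mb long, 5 held receptor genes, and these 5 contained 157 of the 352 receptor genes (44.6%). The 100 stretches contained 18.7% of olfactory receptor genes and 3.95% of all protein-coding genes. They made up 17.1% of the chromosomes. In CM the 100 longest stretches held 144 receptor genes (40.9%). The romidepsin stretch over the 86 V1R genes of chromosome 7 measured 4.12 Mb, and the CM stretch there 4.15 Mb. Unresolved or repeated sequence within such a stretch, in which no peak can be called, was not examined.

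Some other genes interspersed with the receptors carried peaks, though a smaller share of them than of all protein-coding genes. The 27 groups, 25.8 Mb in all, held 48 CM and 144 romidepsin peaks, and 7 and 46 of these lay at no protein-coding gene. Inside the groups lay 85 genes that belong to neither the Vmn1r and Vmn2r symbols nor the olfactory receptors. Of these, 35 had a CM peak (41.2%, interval 30.6 to 52.4) and 39 a romidepsin peak (45.9%, upper bound 57.0). The shares over all protein-coding genes, 53.8% and 68.7%, lay above these intervals. Many of the genes without a peak were known by number only. V1ra8 and V1rd19, whose symbols begin with V1r but not Vmn1r, were counted among the 85 and had no peak in either list. Zinc finger genes named Zfp, Zscan or Zik were frequent here. A CM peak lay at 15 of 22 (68.2%, interval 45.1 to 86.1) and a romidepsin peak at 17 of 22 (77.3%, interval 54.6 to 92.2). Both intervals hold the share over all protein-coding genes. The sets were formed after their values were seen.

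On chromosome 7, between 7212996 and 13220289, 52 receptor genes shared 6.01 Mb with 27 other genes. Of the receptor genes 0 had a CM and 1 a romidepsin peak, and of the other genes 16 and 20 did. The shares over all protein-coding genes were 53.8% and 68.7%. Trim28, which encodes a corepressor that recruits an H3K9 methyltransferase, had a CM fold of 6.23 there. Chmp2a and Ube2m, beside it, shared a CM peak of fold 7.18, and all 3 genes shared 1 romidepsin peak of fold 4.55. The longest stretch without a peak in this group was 5179 kb in CM and 3193 kb with romidepsin.

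On chromosome 6, between 56923914 and 58472878, 28 V1R genes lay beside 6 other genes that all had peaks in both lists. Over all protein-coding genes, 53.8% had a CM peak and 68.7% a romidepsin peak. The group held 9 CM and 35 romidepsin peaks. Herc6, a ubiquitin ligase gene induced by interferon, had a CM fold of 5.86 and a romidepsin fold of 4.57, and Vopp1 6.17 and 4.28. None of these peaks but the one at Nt5c3 touched a receptor window.

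On chromosome 17, between 17703941 and 21314886, 36 receptor genes surrounded the formyl peptide receptors. These receptors sense bacterial peptides in neutrophils, and relatives of them are expressed in vomeronasal neurons. At Fpr1 the folds were 4.14 (CM) and 3.31 (romidepsin), and at Fpr2 4.91 and 3.36. Fpr3, Fpr-rs3, Fpr-rs4, Fpr-rs6 and Fpr-rs7 had no peak in either list. So 2 of 7 were marked in each, beside 53.8% (CM) and 68.7% (romidepsin) of all protein-coding genes. Of the 36 vomeronasal receptor genes of the group 0 had a peak in either list. A stretch of 2966 kb within it held no romidepsin peak, although Ppp2r1a, a phosphatase subunit gene, had folds of 6.01 and 3.73 at its edge.

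**Figure D4:**
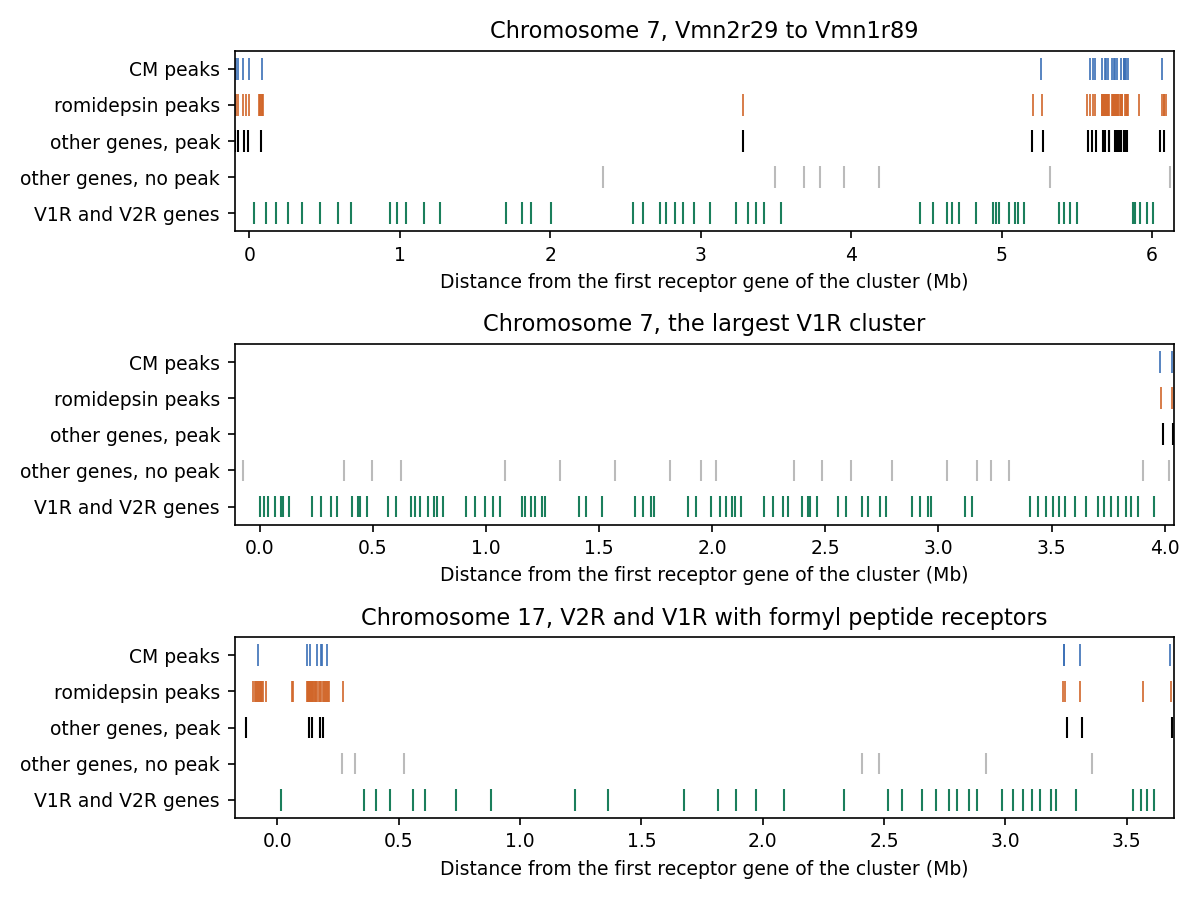
Positions of peaks and genes along 3 receptor clusters, as the distance from the first receptor gene in Mb. Each tick is a gene or a peak at its midpoint. Rows hold Vmn1r and Vmn2r genes, other genes (V1rd19 among them) without and with a romidepsin peak, romidepsin peaks and CM peaks. Most peaks lie at or near the other genes, and the cluster of 86 V1R genes holds none.

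Receptor promoters were poor in CG dinucleotides. The promoter table held a window for 323 of the 355 genes, 324 windows in all. The median receptor window had 1 CG dinucleotide and 36.7% G or C, against 13 and 56.3% over all 21263 windows of protein-coding genes. V1R and V2R windows were alike in this, each with a median of 1. In all, 81.2% of receptor windows held at most 2, as did 18.1% of all windows. The distal window of Vmn2r29, with 23 CG dinucleotides and 62.3% G or C, was the highest among receptor windows on both measures. The next by CG count was Vmn1r54 with 6.

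Annotated starts were those of the promoter table, which do not include the upstream end of the Vmn1r4 span. Peaks were counted within 1 kb of such a start. At receptor genes 0 of 323 had a CM peak there and 1, Vmn2r29, a romidepsin peak, against 51.4% and 63.1% of all genes with a window. Among windows with at most 2 CG dinucleotides, 0 of 263 receptor windows had a peak in either list (upper bound 1.39%). Windows of that kind outside the vomeronasal and olfactory receptor families had one in 7.81% of 2767 cases in CM (interval 6.83 to 8.87) and in 22.4% with romidepsin (interval 20.9 to 24.0). Where such windows held 11 or more CG dinucleotides, the shares were 78.1% and 88.2%. The windows with at most 2 CG dinucleotides were not matched in base composition. Their median share of G or C was 36.3% for receptors and 45.3% outside both families.

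**Figure D5:**
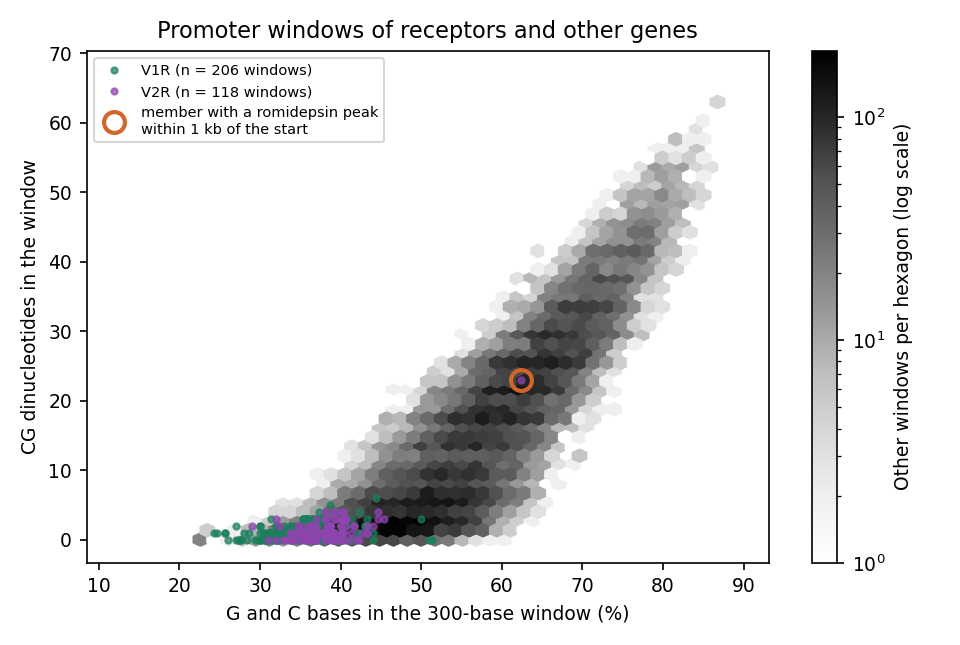
Number of CG dinucleotides against the share of G and C bases, in percent, in promoter windows of 300 bases. Green and purple points are V1R and V2R windows, grey hexagons all windows outside the receptor families on a log colour scale, and the orange circle the single receptor window with a romidepsin peak within 1 kb. Receptor windows sit at the CG-poor edge, and the distal Vmn2r29 window with 23 CG dinucleotides stands apart.

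Near-identical copies are common in these families. Reads were 75 bases long, per the labels, and a read that fits several copies is often placed at random or dropped. A word of 75 bases in common with the window of another gene elsewhere in the genome was found in 142 of the 324 receptor windows (43.8%), against 6.84% of all windows. In 65 receptor windows every word was shared. Among the 182 receptor windows without a shared word, 0 had a CM peak and 1 a romidepsin peak at the start (0.549%, interval 0.0139 to 3.02). Olfactory receptor windows shared a word in 6.65% of cases. Copies outside promoter windows, and the treatment of reads with several matches, were not tested.

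Few receptor pseudogenes had a peak. Of 286 Vmn1r and Vmn2r pseudogenes with a place, 2 had a CM peak (0.699%, interval 0.0848 to 2.5) and 4 a romidepsin peak (1.4%, interval 0.382 to 3.54), while other pseudogenes had one in 2.3% and 13.4% of 10044 cases. The CM interval holds the share of other pseudogenes. The highest fold was found in Vmn2r-ps23 on chromosome 5, where the CM peak (fold 5.35) and a romidepsin peak (fold 4.23) were shared with 5430403G16Rik.

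Other chemosensory families were also largely without peaks. Olfactory receptor genes had a peak in 0 of 1109 cases in CM (upper bound 0.332%) and 14 with romidepsin (1.26%, interval 0.692 to 2.11), an interval that holds the vomeronasal share of 1.14%. Their median distance to a romidepsin peak was 223 kb. Trace amine receptors had 0 and 2 of 15, and taste receptors 1 and 3 of 38. The beta-defensins, a tandem family of antimicrobial peptides, had 1 and 3 of 44. With romidepsin these shares were 13.3% (interval 1.66 to 40.5), 7.89% (1.66 to 21.4) and 6.82% (1.43 to 18.7). They were above the vomeronasal share of 1.14% but below the 68.7% of all protein-coding genes. No test of the differences between families was run.

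Genes for the machinery around the receptors were counted in the same way. Of 11 vomeronasal signalling genes, 3 had a CM peak and 6 a romidepsin peak, beside 53.8% and 68.7% of all protein-coding genes. The CM fold was 6.85 at Gnai2, the G protein subunit of V1R neurons, which leukocytes also use. B2m, the MHC class I light chain, stood at 6.63 in CM and 5.00 with romidepsin, and Plcb2, a phospholipase C gene, at 4.96 and 3.91. Gng8 (fold 3.47), Gng13 (2.77) and Calr4 had a romidepsin peak only. The median fold of the marked genes was 6.63 in CM and 3.69 with romidepsin, against 5.79 and 3.86 over all marked genes. Trpc2, the transduction channel of vomeronasal neurons, Gnao1, Omp, Ano1 and Ano2 had no peak in either list. The 9 non-classical MHC genes of the H2-M family that accompany V2R expression had 0 peaks in both lists.

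Of 9 transcriptional regulators of vomeronasal neurons, 2 had a CM peak, Ldb1 (fold 5.82) and Lhx2 (3.60). A romidepsin peak was found at 6. The shares over all protein-coding genes were 53.8% in CM and 68.7% with romidepsin, the latter near that of the regulators. Ldb1 had a romidepsin fold of 4.52 and Lhx2 of 3.28. Tfap2e, which directs neurons to the V2R type, had a romidepsin fold of 2.48 and no CM peak, as did Meis2 (3.25), Ebf1 (2.96) and Neurod1 (2.42). Bcl11b, Emx2 and Neurog1 had none in either list. All 9 genes for factors of H3K9 methylation, demethylation or heterochromatin had a peak in both lists, beside 53.8% and 68.7% of all protein-coding genes. Ehmt2, an H3K9 methyltransferase gene, had a CM fold of 7.49 (list median 5.40, against 5.79 over all marked genes) and Kdm1a, a demethylase gene required for receptor choice in olfactory neurons, 6.67. Setdb1 had folds of 5.34 and 3.88, and Lbr, a nuclear envelope gene that organises heterochromatin, 6.24 and 3.91.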

How the data were processed

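The labels describe 4 samples: for CM and for CM with romidepsin, 1 immunoprecipitated library and its input. Lists of broad peaks for the 2 immunoprecipitated libraries were used, and the 2 inputs were not analysed here. Per the submitters' processing notes, Bowtie2 2.4.4, MACS2 2.2.7.1, deepTools 3.5.1 and build mm10 were used. Their settings, read filters and use of the input are not given in the sources used here. The authors' deposited lists give each peak a score, a ratio (fold enrichment), a −log10 p-value and a −log10 q-value, each averaged over the region. These are the peak caller's own values and describe peaks within a list. The score was not used.

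Gene spans came from a RefSeq table of GRCm38.p6 and were matched by symbol. Genes listed before 3 Mb on chromosomes 1 to 19 and X, or with no known chromosome (121 protein-coding genes), were left out, because the numbering was taken to be that of unplaced scaffolds, an inference from the positions alone. Promoter windows (250 bases before to 50 after a start) came from RefSeq for the same assembly. Their orientation was checked on 732 overlapping pairs on opposite strands. Python 3.11.15, pandas 2.3.3, SciPy 1.17.1 and Biopython 1.88 were used, and the overlap functions were tested on simulated data. Named genes were every receptor gene with a peak, active neighbours, the 5 nearest receptor genes without a peak, the farthest one, and short gene lists. Clcn4, AI987944, Mad2l1, Vmn1r54, Vmn2r-ps23 and the genes named inside clusters were chosen after their values were seen. 1 gene of a planned list is not reported here. The members and lists were chosen with earlier results of these data known. Alternatives covered thresholds, windows, overlap rules, list length and gene type.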

Additional observations from a re-analysis of the deposited data

How the results depend on the processing

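Both counts stayed low under the alternatives. Of 72 alternative values 37 stayed near the reported one and 35 moved. Members with a peak numbered 1 in CM and 4 with romidepsin, in 1 and 5 peaks. With −log10 q ≥ 5 they were 0 and 1 (in 0 and 1 peaks), against 32.6% and 50.1% of all genes. With romidepsin they were 2 (in 2 peaks) at a fold of at least 3, 2 (in 2 peaks) at gene ends only, and 1 (in 1 peak) with equal numbers of strongest peaks, where 54.8% of all genes had a peak. With flanks of 10 kb they were 3 and 7 (in 3 and 12 peaks), and with Vmn symbols of any gene type 3 and 8 of 638 (in 3 and 11 peaks). Within 1 kb of a start in the promoter table, a window added after the data had been seen, they were 0 and 1. The share over all genes was not counted for gene ends only, flanks of 10 kb or any gene type. Vmn2r29 was the gene left at the higher q-value and among the strongest peaks.

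The share of bases under a CM peak (0.0252%) was 0 with −log10 q ≥ 5, 0.00729% without flanks and 0.0333% for any gene type. That under a romidepsin peak (0.192%) was 0.029% with −log10 q ≥ 5 and with equal numbers of peaks, 0.0756% at a fold of at least 3, 0.185% without flanks and 0.186% for any gene type. The median distance was 476 kb (CM) and 358 kb (romidepsin) with −log10 q ≥ 5, and with romidepsin 329 kb at a fold of at least 3 and 332 kb with equal numbers of peaks. Active neighbours numbered 1 (CM) and 3 (romidepsin), and 0 and 1 with −log10 q ≥ 5. With equal numbers of peaks there was 1 with romidepsin. Fewer peaks enter each stricter setting. No paired analysis was possible because each condition had 1 library. Read depth is unknown and limits how weak a peak could be listed.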
